A study of Mus musculus with 4 samples.

Results

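The 10 genes described here build the MHC class I peptide display: H2-K1, H2-D1 and H2-T23 encode class I heavy chains, B2m their shared light chain, Tap1 and Tap2 the peptide transporter, Tapbp, Calr and Erap1 helpers of peptide loading, and Nlrc5 a transcriptional activator of class I genes. They were chosen by gene symbol, and all 10 were found among the 22558 genes of the count table and among the 11711 genes tested. RNA sequencing was carried out on activated lung group 2 innate lymphoid cells (ILC2s), which release type 2 cytokines in response to IL-33, from 2 WT (C57BL/6) samples and 2 samples with the label ICAM-1 KO (allele Icam1 tm1Jcgr on a B6 background), called KO-labelled here. Each sample was a pool of cells from 4 mice, labelled as 6 weeks old, challenged intranasally 3 times with rmIL-33 at 0.5 µg, with lungs taken on day 4. Both groups had received rmIL-33, and no naive sample was analysed here. The cells had been sorted as CD45+ cells without lineage markers that carried ST2 and CD127, so the libraries give a mean over a sorted population in which fewer cells of a type and less RNA per cell cannot be told apart. The question is whether genes of the class I route differed between both groups.

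Class I molecules carry short peptides from inside a cell to its surface. The proteasome cuts proteins, TAP moves the peptides into the endoplasmic reticulum, aminopeptidases such as ERAP1 trim them, and tapasin and calreticulin help to load them onto a heavy chain that is bound to β2-microglobulin. T cells and NK cells read the result, and interferons are known to raise most genes of the route. H2-K1 and H2-D1 are the classical mouse chains, while H2-T23 encodes Qa-1, a ligand of the NKG2A receptor.

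The heavy chain genes are similar copies, so it matters how far their reads can be told apart. The longest coding run that H2-K1 and H2-D1 share exactly was 91 bases, in exon 4 of both genes, and a read inside it could come from either. It lies at chr17:33997343-33997433 on the minus strand for H2-K1 and at chr17:35265911-35266001 on the plus strand for H2-D1, in mm10. It is shown in lower case, 5′ to 3′, with no letters marked.
shared run: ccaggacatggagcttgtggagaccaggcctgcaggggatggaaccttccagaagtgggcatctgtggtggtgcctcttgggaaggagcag
Of all 50-base stretches in the annotated transcripts, 9.63% of those of H2-K1, 12.8% of those of H2-D1 and 14.5% of those of H2-T23 also occurred in another gene on either strand, against 26.5% for the neighbouring chain gene H2-Q7. None of those of B2m did. Most of the annotated transcript sequence of each member chain gene, untranslated parts included, is therefore its own, and shorter stretches are shared. The share within the coding sequence alone, 1107 bases for H2-K1 and 1086 for H2-D1, was not computed. Reads that fit several genes were divided in the counting, and the counts of H2-K1 were not whole numbers in 4 of 4 libraries, those of H2-T23 in 3 and those of H2-D1 in 1 (tolerance 0.001), an order that did not follow the share of shared stretches.

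Class I promoters carry a known set of elements that Nlrc5, interferon-induced factors and NF-κB act through. They are shown as background, and a link between these elements and the levels given below was not tested. RefSeq promoters (GRCm38.p6) matched 8 of the 10 genes, all but Tap2 and Nlrc5. For H2-K1, 2 starts are listed, and the window of the first is shown. The 250 bases before this start of H2-K1 (chr17:34000348-34000597, minus strand) and before that of B2m (chr2:122147437-122147686, plus strand) are given 5′ to 3′. Capitals are matches to a kappa B motif, an interferon response element, an X2 box and a Y box.
H2-K1: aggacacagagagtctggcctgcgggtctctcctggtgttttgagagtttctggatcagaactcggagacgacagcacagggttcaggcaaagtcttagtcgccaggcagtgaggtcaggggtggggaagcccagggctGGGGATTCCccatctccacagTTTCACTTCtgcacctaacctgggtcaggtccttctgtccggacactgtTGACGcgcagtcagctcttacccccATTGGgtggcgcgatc
B2m: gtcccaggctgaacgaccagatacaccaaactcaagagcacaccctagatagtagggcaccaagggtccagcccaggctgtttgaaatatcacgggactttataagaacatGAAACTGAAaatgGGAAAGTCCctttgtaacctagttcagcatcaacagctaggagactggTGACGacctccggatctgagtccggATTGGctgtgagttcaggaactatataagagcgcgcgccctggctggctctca
The letters searched on both strands were GGGNNTTCC and GGACTTTCC for kappa B, found in 4.98% and 0.283% of 32851 promoters, and GAAANNGAA for the interferon element, found in 7.13%. A second form of this element, GAANNGAAA (6.31%), was added after the H2-K1 promoter had been seen. The X2 box was searched as TGACG (17.8%) and the Y box as CCAAT (33.8%), and the kappa B and interferon forms did not share bases in the promoters shown. H2-K1 and H2-D1 held the kappa B, interferon, X2 and Y letters in the same order and with the same gaps, 21, 49 and 25 bases between the starts of one match and the next. The window of the second H2-K1 start (chr17:34000334-34000583) held the same matches and a further Y box, beginning 6 bases before that start. The H2-T23 window held an interferon form and a Y box, that of Erap1 an interferon form and that of Tap1 an X2 and a Y box. Those of Tapbp and Calr held Y boxes, and no other of the listed letters occurred in any of these windows. Stretches annotated as untranslated, of this or another gene, covered 250 of the 250 bases for H2-D1 and Erap1. They covered 246 for Tap1, 154 for H2-T23 and 146 for Tapbp. Letters absent from these covered windows may therefore lie outside them, and their sequences are not shown. These matches are letters in a window and were not tested for binding.

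The 4 libraries held 24796148 to 28782471 counts. Icam1, the gene targeted by the knockout, was counted at 2579 and 2630 in WT but also at 2812 and 3453 in the KO-labelled libraries, so its RNA did not check the labels. The authors report from flow cytometry of lung ILC2s that these mice lack ICAM-1 protein, which was not measured in the libraries. All 12 ILC2 markers listed, among them Gata3, Il1rl1 and Il7r, were detected in every library. Their summed normalized count was 5965 and 6572 in WT and 5706 and 5918 in the KO-labelled libraries. The cytokine gene Il5, which was called lower, gave 1039 and 1252 of it in WT and 668 and 656 in the KO-labelled libraries. Marker genes of other lung cells were also present, and their values are given with the class II genes below. P-values measure the spread between these pools only.

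The classical heavy chain genes were among the most abundant RNAs of these cells, and both had lower values in the KO-labelled libraries without passing the test. H2-K1 (chr17:33996017-34000333, minus strand) had normalized counts (the authors' upper quartile values, comparable between libraries but not between genes) of 2593 and 2788 in WT and 2119 and 2268 in the KO-labelled libraries. The groups did not overlap, and the difference was a log2 fold change of -0.27 (standard error 0.0896, 95% interval -0.47 to -0.06, adjusted p = 0.0802 by the quasi-likelihood test of edgeR, adjusted over all genes tested after Benjamini and Hochberg). H2-D1 (chr17:35262730-35267499, plus strand) had 3917 and 4114 in WT and 3344 and 3773 in the KO-labelled libraries. Its groups did not overlap either, but its KO-labelled replicates differed by almost as much as the groups. The log2 fold change was -0.15 (standard error 0.0974, 95% interval -0.37 to 0.07, adjusted p = 0.347 by edgeR). H2-T23 (chr17:36029773-36032855, minus strand), the Qa-1 gene, had 374 and 390 in WT and 301 and 351 in the KO-labelled libraries. Both KO-labelled values were below both WT values, with a log2 fold change of -0.20 (standard error 0.0989, 95% interval -0.43 to 0.02, adjusted p = 0.208 by edgeR).

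B2m, whose protein every class I heavy chain needs to reach the surface, had values below WT as the heavy chains had. It lies at chr2:122147686-122153083 on the plus strand and had normalized counts of 2654 and 2951 in WT and 2109 and 2466 in the KO-labelled libraries. The groups did not overlap. The log2 fold change was -0.27 (standard error 0.107, 95% interval -0.51 to -0.02), and it did not pass the test (adjusted p = 0.131 by edgeR). No 50-base stretch of B2m occurs in another gene, so its count did not rest on how reads of copies were divided. Without ICAM-1 KO replicate 2, B2m had a log2 fold change of -0.39 and an adjusted p of 0.0466 by edgeR, past the threshold.

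Neither subunit of the peptide transporter was called. Tap1 (chr17:34187553-34197225, plus strand) had normalized counts of 173 and 186 in WT and 157 and 158 in the KO-labelled libraries, with groups that did not overlap and a log2 fold change of -0.16 (95% interval -0.36 to 0.04, adjusted p = 0.269 by edgeR). Tap2 (chr17:34203527-34216321, plus strand) had 240 and 222 in WT and 228 and 236 in the KO-labelled libraries, with groups that overlapped. Its log2 fold change was 0.03 (95% interval -0.17 to 0.23, adjusted p = 0.846 by edgeR), the only one of the 10 above 0. The ratio of Tap1 to Tap2 per length of exon, in which the scaling of a library cancels, was 0.496 and 0.577 in WT and 0.477 and 0.46 in the KO-labelled libraries. The 2 WT ratios differed from each other by more than the group means did, and both KO-labelled ratios lay below both WT ratios. Exons of Tap1 overlap Psmb9 and those of Tap2 overlap the noncoding genes Gm20496 and Gm15821, all on the opposite strand, and the sources used here do not say whether the counting used strand.

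The 3 helpers of loading and trimming also had lower values, and none passed the test. Tapbp, which encodes tapasin, the bridge between TAP and the heavy chain, lies at chr17:33915899-33929292 on the plus strand. It had 452 and 442 in WT and 394 and 396 in the KO-labelled libraries, with a log2 fold change of -0.15 (95% interval -0.33 to 0.03, adjusted p = 0.24 by edgeR). Its groups did not overlap. Calr (chr8:84841850-84846934, minus strand), the gene of the chaperone calreticulin, had 663 and 687 in WT and 633 and 660 in the KO-labelled libraries. Calr was the flattest of the members with lower values, with a log2 fold change of -0.03 (95% interval -0.22 to 0.15, adjusted p = 0.814 by edgeR). Erap1 (chr13:74639568-74693201, plus strand), which encodes the trimming aminopeptidase, had 165 and 162 in WT and 156 and 129 in the KO-labelled libraries. The WT values were close together and the KO-labelled values were not, and the log2 fold change was -0.17 (95% interval -0.41 to 0.07, adjusted p = 0.309 by edgeR). Of its 50-base stretches, 10.7% also lie in Cast, which overlaps it on the opposite strand. Exons of Tapbp overlap Zbtb22 on the same strand and Gm19412 on the opposite one, and 20.3% of its stretches are shared with Gm19412.

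Nlrc5, the activator that class I promoters respond to, was the least abundant member per length. It lies at chr8:94434356-94527272 on the plus strand and had normalized counts of 43.3 and 45.6 in WT and 38.3 and 39.2 in the KO-labelled libraries. The groups did not overlap, and the log2 fold change of -0.17 (95% interval -0.47 to 0.12, adjusted p = 0.408 by edgeR) had the widest interval of the 10. Counts of Nlrc5 and B2m were whole numbers in all 4 libraries.

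**Figure D1:**
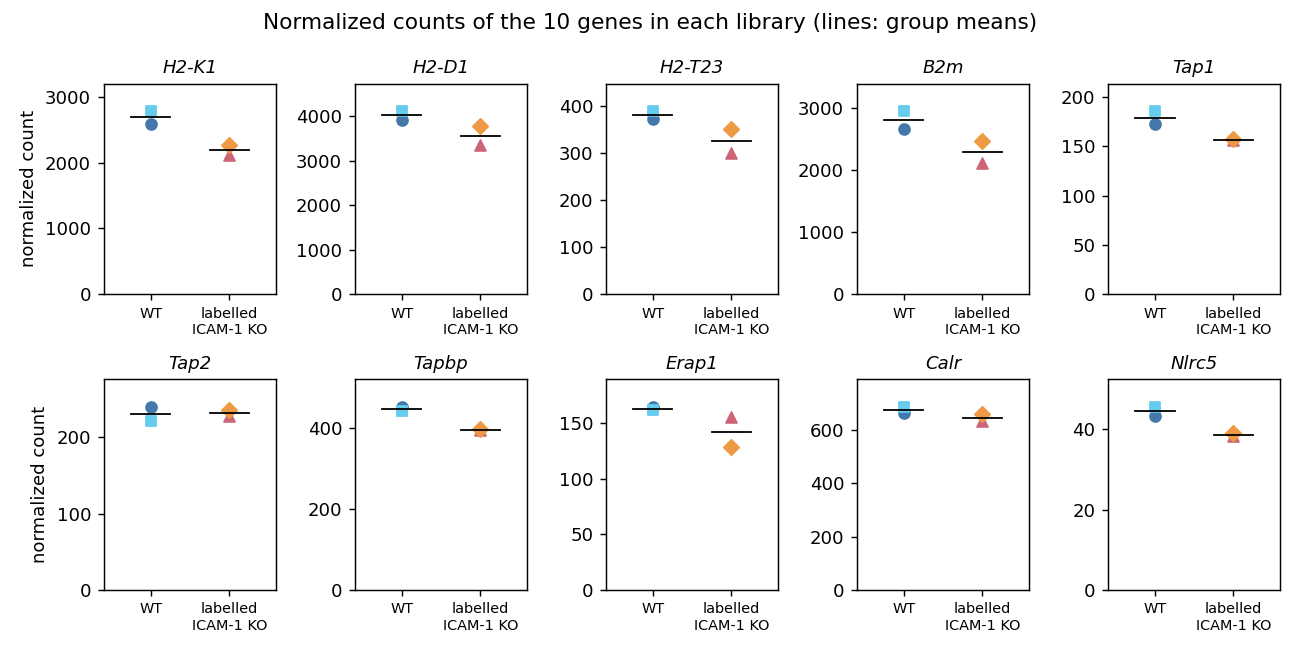
Normalized counts (y axis, from 0, a scale of its own for each gene) of the 10 class I presentation genes in WT libraries (circle, replicate 1; square, replicate 2) and KO-labelled libraries (triangle, replicate 1; diamond, replicate 2), with lines at the group means. For 9 of the 10 genes both KO-labelled libraries sit below both WT libraries, by small margins, and Tap2 is the exception.

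None of the 10 genes passed an adjusted p of 0.05 in either direction by edgeR, where 4.97% of all genes tested were called lower and 8.8% higher, and none reached 2-fold, where 5.47% of genes were called with at least that change. At an unadjusted p under 0.05, 2 of the 10 were lower, H2-K1 and B2m, beside 13.1% of all genes tested. With DESeq2, H2-K1 (adjusted p = 0.00809) and B2m (adjusted p = 0.0298) were called lower, and with limma H2-K1 was (adjusted p = 0.0429 at a pseudocount of 1). Over 14 alternatives the adjusted p of H2-K1 ran from 0.00809 to 0.359, and over 15 that of B2m from 0.0171 to 0.559. Values of 9 of the 10 genes were lower in both KO-labelled libraries than in both WT libraries, beside 31.3% of all genes tested. The same 9 had a log2 fold change below 0, as had 48.8% of all genes tested, and the median of the 10 was -0.17 against 0.01 over all genes. The per-length scale divides by each library's sum of counts per kilobase of exon instead of its upper quartile. On this scale 7 of 10 genes did not overlap, with lower KO-labelled values, beside 25.4% of all genes, and Tap2, Erap1 and Calr overlapped. The members share regulators and, for the chains, reads, so they are not 10 separate measurements. The lowest lower bound of the 10 intervals, that of B2m, corresponds to 0.704 of the WT level.

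**Figure D2:**
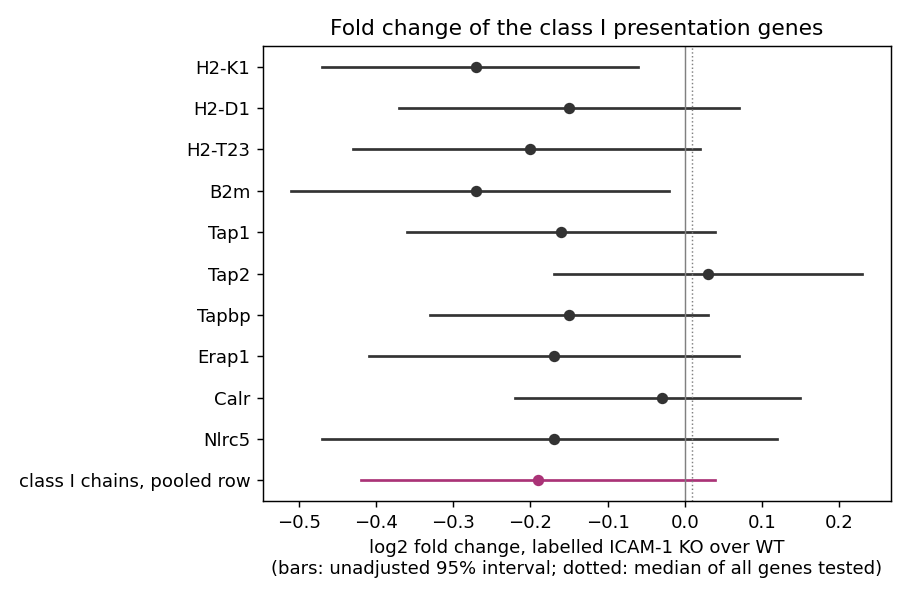
Log2 fold change of the KO-labelled libraries over WT (x axis) for each class I presentation gene and for the row in which 21 class I chain genes were pooled, with unadjusted 95% intervals from edgeR as bars. The intervals of H2-K1 (-0.47 to -0.06) and B2m (-0.51 to -0.02) lie below 0 and the other 9 include it; the dotted line marks the median of all genes tested, 0.01.

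Pooling the chain genes reduced the question of how reads of copies had been divided, though chains also share stretches with genes outside the pooled row. The summed counts of the 21 class I chain genes in the count table were 250388 and 276629 in WT and 199622 and 241321 in the KO-labelled libraries. They made up 0.919% and 0.961% of all counts in WT and 0.805% and 0.879% in the KO-labelled libraries. Less than 1% of the counts of each ILC2 library thus came from class I chains. The pooled row had a log2 fold change of -0.19 (standard error 0.1, 95% interval -0.42 to 0.04, adjusted p = 0.235 by edgeR). Leaving out each library that could be left out gave -0.28 to -0.11.

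The mix of chains was nearly constant. H2-D1 took 47.4% and 47% of the pooled counts in WT and 48.3% and 49.1% in the KO-labelled libraries. H2-K1 took 31.4% and 31.8% in WT and 30.6% and 29.5% in the KO-labelled libraries, below WT in both. H2-T23 took 4.52% and 4.45% in WT and 4.34% and 4.56% in the KO-labelled libraries, with groups that overlapped. Per length of exon, the ratio of H2-K1 to H2-D1 was 0.581 and 0.595 in WT and 0.556 and 0.528 in the KO-labelled libraries, while the ratio of H2-K1 to B2m overlapped between the groups, with 0.286 and 0.277 against 0.294 and 0.269. With 2 libraries a group, no permutation of such a ratio can reach a p under 0.05.

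Levels can be compared between genes only per length, here as counts per kilobase of merged exons scaled to a sum of 1000000 over 22394 genes. B2m ranked 5th of these genes, with 7866 to 10137 over the 4 libraries, H2-D1 ranked 18th with 4159 to 4712, and H2-K1 ranked 36th with 2313 to 2803. The ranges of these 3 genes did not overlap, and H2-D1 stood at 0.492 and 0.465 of the light chain in WT and 0.529 and 0.51 of it in the KO-labelled libraries. The sum of all chains stood close to B2m, with ratios of 0.972 and 0.926 in WT and 1.03 and 0.98 in the KO-labelled libraries. Calr followed with 696 to 705 (208th), then H2-T23 with 334 to 398 and Tapbp with 332 to 378, whose ranges overlapped. Tap2 had 174 to 193, Tap1 87.4 to 100, Erap1 53.8 to 68.7 and Nlrc5 14 to 15.9. Apart from H2-T23 and Tapbp, no neighbours in this order overlapped; the order was the same in both groups' means. The lengths are those of all annotated exons and not of the transcripts in use.

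**Figure D3:**
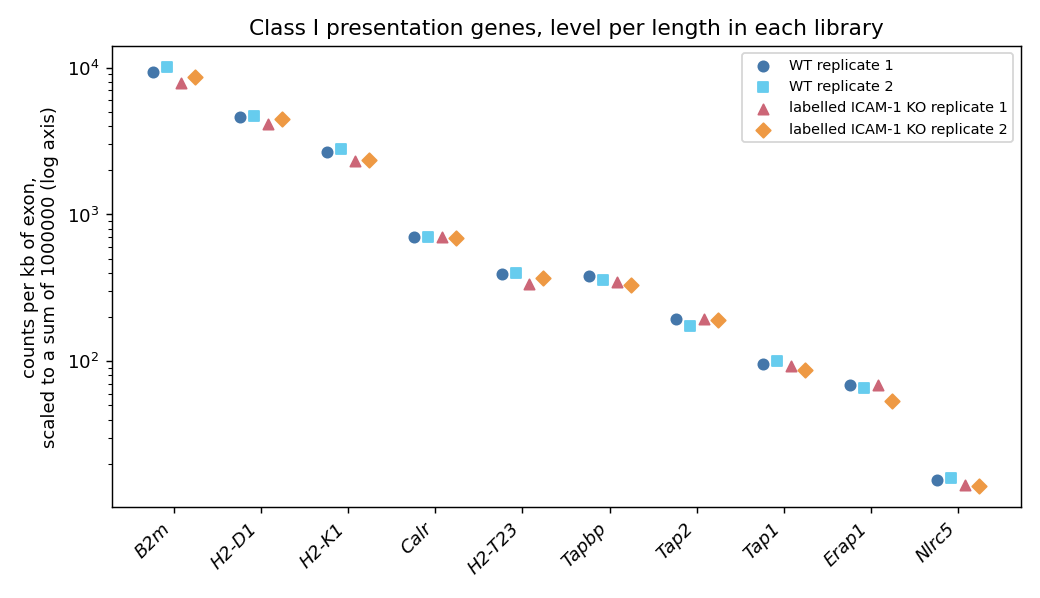
Level per length (y axis, counts per kilobase of merged exons scaled to a sum of 1000000, log axis) of each class I presentation gene, ordered by its mean, in WT libraries and KO-labelled libraries. B2m, H2-D1 and H2-K1 stand above the rest, Nlrc5 is lowest at 14 to 15.9, and the ranges of neighbouring genes overlap only for H2-T23 and Tapbp.

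The other class I chains gave no call either. Of 34 listed, the count table holds 18, and 11 passed the filter on low values. Of these, 0 were called by edgeR, and 1 had an unadjusted p under 0.05. This was H2-Q7, the most abundant of them per length, with normalized counts of 791 and 844 in WT and 635 and 692 in the KO-labelled libraries. Its log2 fold change of -0.27 (adjusted p = 0.0704 by edgeR) equalled that of H2-K1, and it was called lower with DESeq2 (adjusted p = 0.0121) and limma (adjusted p = 0.0402 at a pseudocount of 1). The median of the 11 was 0, between -0.27 and 0.47. Among class I-like genes outside the complex, 1 of 4 tested was called, Cd1d1, which presents lipids to NKT cells, with 15.3 and 16.1 in WT and 24.5 and 25 in the KO-labelled libraries, a log2 fold change of 0.69 (adjusted p = 0.0373 by edgeR). This call was lost when any 1 library was left out (adjusted p 0.0948 to 0.124 by edgeR).

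Upstream of TAP, some proteasome genes were called. Of the 7 genes of the immunoproteasome, the interferon-inducible form, and its regulators, 3 fell, 0 rose and 4 were not called, and all 7 had a log2 fold change below 0, with a median of -0.32. Psmb8, a catalytic subunit, had 527 and 532 in WT and 397 and 417 in the KO-labelled libraries, a log2 fold change of -0.35 (adjusted p = 0.0239 by edgeR). Psmb10, another catalytic subunit, fell by 0.42 on the log2 scale (adjusted p = 0.0223 by edgeR) and Psme2, of the PA28 activator, by 0.39 (adjusted p = 0.0377 by edgeR). The third inducible subunit, Psmb9, which overlaps Tap1, had a log2 fold change of -0.08 (adjusted p = 0.681 by edgeR). All 3 calls were lost when WT replicate 1, WT replicate 2 or ICAM-1 KO replicate 1 was left out, with adjusted p up to 0.183 by edgeR.

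Of the 3 standard catalytic subunits, which the inducible ones replace, 2 fell. Psmb5 had 201 and 217 in WT and 156 and 149 in the KO-labelled libraries, a fall of 0.43 on the log2 scale (adjusted p = 0.0166 by edgeR), and Psmb7 fell by 0.34 (adjusted p = 0.0456 by edgeR). Psmb6 had -0.18 (adjusted p = 0.207 by edgeR). The per-length ratio of Psmb8 to Psmb5, the inducible to the standard form, was 0.698 and 0.653 in WT and 0.678 and 0.745 in the KO-labelled libraries, and the groups overlapped. Psmb5 was not called without WT replicate 2 (adjusted p = 0.0857 by edgeR), and Psmb7 was not called without any 1 library.

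In peptide trimming, 2 of 6 genes tested fell. Thop1, an oligopeptidase that destroys peptides, had 61.2 and 58.6 in WT and 40.4 and 36.5 in the KO-labelled libraries, a log2 fold change of -0.61 (adjusted p = 0.0148 by edgeR), and Lap3, a leucine aminopeptidase, fell by 0.51 (adjusted p = 0.0329 by edgeR). Blmh, a bleomycin hydrolase, had -0.17 (adjusted p = 0.348 by edgeR). Among 11 genes of loading and quality control in the endoplasmic reticulum, 1 rose: Hspa5, the stress-responsive chaperone BiP, had 1161 and 1058 in WT and 1442 and 1471 in the KO-labelled libraries, a log2 fold change of 0.42 (adjusted p = 0.0153 by edgeR). The list had a median of 0.04. Each of these 3 calls was lost without at least 2 of the libraries left out in turn: WT replicates 1 and 2 for Hspa5 and for Thop1, with ICAM-1 KO replicate 2 for the latter, and all but WT replicate 1 for Lap3.

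Regulators and the interferon route did not move 1 way. Of 18 class I gene regulators, 1 fell, Irf2, an interferon regulatory factor, by 0.54 on the log2 scale (42.7 and 48.8 in WT, 28.2 and 33.3 in the KO-labelled libraries, adjusted p = 0.0471 by edgeR), and Nfkb1, an NF-κB subunit, had -0.15 (adjusted p = 0.285 by edgeR). The call of Irf2 was kept only without ICAM-1 KO replicate 2 when libraries were left out in turn (adjusted p 0.0344 to 0.204 by edgeR). Of 7 interferon receptors and kinases, 2 rose. Ifnar1, a chain of the type I interferon receptor, had 144 and 145 in WT and 224 and 251 in the KO-labelled libraries, a log2 fold change of 0.74 (adjusted p = 0.00247 by edgeR), and kept its call without any 1 library. Jak2 rose by 0.32 (adjusted p = 0.0365 by edgeR), a call lost without any 1 library, while Jak1 had -0.08 (adjusted p = 0.565 by edgeR).

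Of 16 interferon response genes tested, 2 rose and 1 fell, with a median of 0.02. The guanylate binding protein genes Gbp7 (56.4 and 60.7 in WT, 97.2 and 120 in the KO-labelled libraries, log2 fold change 0.92, adjusted p = 0.00352 by edgeR) and Gbp3 (0.70, adjusted p = 0.0109 by edgeR) rose. Irgm1, an immunity-related GTPase, had 39 and 40.5 in WT and 23.4 and 21.2 in the KO-labelled libraries, a log2 fold change of -0.81 (adjusted p = 0.0108 by edgeR). Gbp7 kept its call without any 1 library, Gbp3 lost it without WT replicate 1 (adjusted p = 0.056 by edgeR) and Irgm1 without WT replicate 2 (adjusted p = 0.0526 by edgeR). Of 7 tested genes of receptors that read class I, 2 rose, Klrc1, which encodes NKG2A, the receptor of the H2-T23 product, with 93 and 123 counts in WT and 291 and 215 in the KO-labelled libraries (log2 fold change 1.3, adjusted p = 0.0413 by edgeR), and Pirb, an inhibitory receptor, with 255 and 322 counts in WT and 547 and 718 in the KO-labelled libraries (log2 fold change 1.2, adjusted p = 0.0121 by edgeR). Lilrb4a, another inhibitory receptor, had 0.14 (adjusted p = 0.349 by edgeR). Klrc1 was called without 1 of the 4 libraries only, ICAM-1 KO replicate 2, and Pirb was not called without WT replicate 1 (adjusted p = 0.0648 by edgeR).

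**Figure D4:**
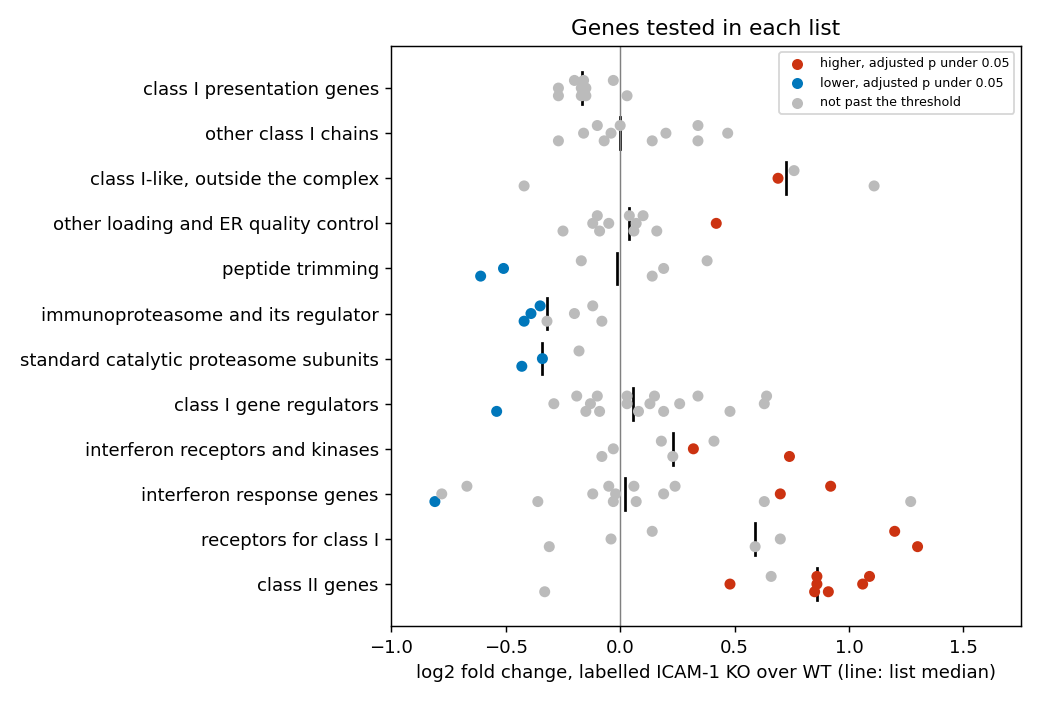
Log2 fold change of the KO-labelled libraries over WT (x axis) for every tested gene of the class I presentation genes and of 11 related lists, with a black line at each list's median. The class I presentation genes lie between -0.27 and 0.03 with no call, the proteasome genes below 0, and the class II genes, with a median of 0.86, mostly above 0.

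MHC class II genes, the other display route, mostly went the opposite way to the values of the members. Of 9 tested, 7 rose, beside 8.8% of all genes tested, 0 fell and 2 were not called. In 8 both KO-labelled libraries were above both WT libraries, beside 28.3% of all genes tested. The exception was H2-Oa, with 26.4 and 27.7 in WT and 21 and 21.3 in the KO-labelled libraries (log2 fold change -0.33, adjusted p = 0.212 by edgeR). Cd74, the class II invariant chain, had 583 and 554 in WT and 937 and 1081 in the KO-labelled libraries, a log2 fold change of 0.85 (adjusted p = 0.00143 by edgeR). H2-Eb1 (0.91, adjusted p = 0.00596 by edgeR), H2-DMb2 (1.06, adjusted p = 0.00346 by edgeR) and H2-Ob (1.09, adjusted p = 0.0369 by edgeR) rose too. Cd74, H2-Eb1 and H2-DMb2 kept their calls without any 1 library, and H2-Ob kept it only without ICAM-1 KO replicate 2. Within a library, the per-length ratio of Cd74 to B2m was 0.113 and 0.0962 in WT and 0.227 and 0.225 in the KO-labelled libraries, and that of H2-Ab1, a class II chain, to H2-K1 was 0.0907 and 0.0704 against 0.164 and 0.185. Both ratios were higher in each KO-labelled library than in each WT library, and the scaling of a library does not enter them.

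Markers of several other lung cells were higher in the KO-labelled libraries, as the class II genes were, while eosinophil markers went both ways. The 8 macrophage and monocyte markers summed to 229 and 228 normalized counts in WT and 462 and 722 in the KO-labelled libraries, with 6 of 7 tested called higher. Lyz2 alone gave 169 and 172 of these sums in WT and 344 and 577 in the KO-labelled libraries. The 6 B cell markers summed to 160 and 148 in WT and 306 and 247 in the KO-labelled libraries, with 4 of 6 called higher. The 7 endothelial markers summed to 101 and 111 in WT and 265 and 271 in the KO-labelled libraries, with all 7 called higher. None of the markers of these 3 lists was at 0 in a library. T cell markers summed to 274 and 354 in WT and 507 and 639 in the KO-labelled libraries, with 4 of 7 called higher. Their log2 fold changes were above 0 for 5 and below 0 for 2, Cd3g (-0.33) and Cd8a (-0.04), neither of them called. Alveolar epithelial markers summed to 77.3 and 44.6 in WT and 398 and 808 in the KO-labelled libraries, with 3 of 6 called higher. Of these sums, Sftpc gave 24.2 and 0.57 in WT and 253 and 537 in the KO-labelled libraries. Dendritic cell markers had 2 of 4 called higher, NK cell markers 1 of 2, neutrophil markers 3 of 4 and fibroblast markers 0 of 4. Eosinophil markers summed to 112 and 98.1 in WT and 52.9 and 70.5 in the KO-labelled libraries. Counts of Ear1 and Ear2 were not whole numbers in 4 of 4 libraries, so some of their reads had been divided. Of 5 markers tested, 2 were higher (Ccr3 and Ear2), Ear1 was not called (log2 fold change -1.29) and 2 were lower. Those lower were Epx, the eosinophil peroxidase, with 1027 and 739 counts in WT and 0 and 0 in the KO-labelled libraries, and Prg2, a granule protein, with 1583 and 1041 counts in WT and 33 and 118 in the KO-labelled libraries. Ly6g of neutrophils, Klra8 of NK cells, Sftpb of epithelium and Lum of fibroblasts were at 0 counts in at least 1 library. Of the 12 ILC2 markers themselves, Klrg1 and Ptprc rose and Il2ra, Il5 and Il13 fell, with a median log2 fold change of 0 for the list. The part of these cells in the values of the class I genes, which nucleated cells of most kinds express, and in those of the class II genes was not tested.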

How the data were processed

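Activated lung ILC2s were sequenced as 2 WT and 2 ICAM-1 KO libraries, grouped by the sample labels. The authors prepared libraries with a SMARTer low-input kit, mapped reads with STAR (mm10, GENCODE M20) and estimated counts in Partek. The deposited expected counts are not normalized. The authors also deposited a normalized signal by upper quartile normalization, in which 1 is added to each count before it is multiplied by a library factor. The study's own test (GSA) was not run.

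After rounding to integers, the expected counts went into edgeR 4.0.16 (glmQLFit with legacy set to FALSE, upper quartile factors) in R 4.3.3 on 11711 genes whose normalized counts averaged 1 or more and summed to 10 or more, with Benjamini-Hochberg adjustment over all of them. Calls were made at an adjusted p under 0.05. Depth was 24796148 to 28782471 counts per library. Intervals are the log2 fold change plus or minus the t quantile times the standard error and are not adjusted for the number of genes. Exon lengths and overlaps came from GENCODE M21, and gene ends were moved by 1 base to match it. Promoters are RefSeq's.

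The members, gene lists and marker lists were chosen with earlier results of these data known. Besides the members and Icam1, the genes named are that with the highest mean normalized count in each list (not a rank per length) and up to 3 per direction with the largest called change. Psmb9, H2-Ab1, H2-Oa and the marker genes named were added for overlaps, ratios, zero counts, directions and parts of a sum, after their values were seen. The alternatives were TMM factors, DESeq2 1.42.0, other filters on low counts, limma 3.58.1 on the log2 of the normalized count plus 1 or 0.1, the older quasi-likelihood form, unrounded counts, the replicate number as a block, a pooled row for class I chains, and leaving out each library.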

Additional observations from a re-analysis of the deposited data

How the results depend on the processing

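No member was called higher under any alternative. The number called lower, 0 in the reported fit, was 2 with DESeq2 (H2-K1 and B2m), 1 with edgeR's filterByExpr and with limma at either pseudocount (H2-K1 each time), and 0 to 1 when each library was left out. Of 147 values of single members, 135 kept their direction and their side of the threshold, 8 passed the threshold in the same direction, and 4 changed sign. Tap2 was -0.01 with no filter on low counts and -0.02 to 0.09 with 1 library left out, below 0 without WT replicate 2 or ICAM-1 KO replicate 2. Calr was -0.08 to 0.01 with 1 library left out, above 0 without ICAM-1 KO replicate 1. Over all genes, the number called higher was 334 and the number called lower 201 with no filter on low counts, and 930 were called lower with DESeq2. Leaving out 1 library gave 479 to 948 higher and 158 to 388 lower. The pooled chain row kept its sign, with -0.28 to -0.11 when a library was left out, and could not be fitted without WT replicate 2. Icam1 kept its sign and stayed short of the threshold. Calls made up 63.9% higher genes in the reported fit and 55.9% to 76.8% under alternatives. Of 21 called genes named outside the members, 16 lost the call without at least 1 library. The cause of these shifts was not tested.

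With the replicate number as a block, 2 members were called lower (H2-K1 and B2m) and the pooled row passed the threshold (log2 fold change -0.19, adjusted p = 0.0413 by edgeR). In the labels the samples share only a number and no pairing is named, so the block was left out of the reported fit. The deviations of same-numbered libraries correlated at -0.0293, which cannot show whether same-numbered pools shared a processing step. The standard errors of the members, 0.0794 to 0.129 on the log2 scale, set the size of difference that these 4 libraries could resolve.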
